A study of Mus musculus with 70 samples.

Results

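The genes described here encode the trains and motors of intraflagellar transport and the Bardet-Biedl proteins, which carry cargo along and out of the cilium. They were taken by name from the table of 24346 genes: 14 symbols of the form Ift plus a number, 8 of the form Bbs plus a number, and 13 further genes of the same machinery, which gives 35 genes. All 35 had a row in the table and all 35 had a mean of at least 1 FPKM over the libraries, so each was among the 12994 genes tested. FPKM are fragments per kilobase of transcript, scaled to the number of mapped reads, a level that allows for gene length and library size. Single genes were chosen by symbol, but the set was proposed and thereby selected on 2 kinds of measured value in these libraries, the difference of Ift57 between 14-0-0 and sedentary mice and the level of transthyretin (Ttr), so both are given below as a description, with no p-value printed. Counts of genes past a threshold are printed for them beside the share of all genes, and nothing is read from these counts.

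The libraries came from the dorsal hippocampus of adult male C57BL/6J mice, aged 12 weeks and individually housed, taken 1 h after training where there was any, in 7 groups of 10 libraries, and each group held 5 libraries from each of 2 harvest cohorts. Home cage mice had neither a running wheel nor training. Sedentary mice had no wheel but received 3 min of object location memory training, a task in which mice explore objects whose positions they must remember. The other groups received the same 3 min of training after voluntary wheel running and are named by days of initial exercise, days of sedentary delay and days of reactivating exercise. They were 0-0-2 (2 days of running alone), 14-0-0 (14 days of running), 14-14-0 and 14-7-0 (14 days of running and then 14 or 7 days without a wheel) and 14-7-2 (2 further days of running after 7 days without). The question was whether the levels of these genes differed between each exercise pattern and sedentary mice, with home cage against sedentary as the contrast for training. The 6 comparisons share the 10 sedentary libraries, and they are therefore not independent of each other.

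FPKM do not hold the number of reads, and the read totals that the study lists by sequencing sample are not used here. Two-sided p-values measure the spread between these libraries, which nothing in the labels ties to separate animals. One sedentary library, replicate 6, stood apart: Neurod6, a transcription factor of excitatory neurons, was at 2.45 FPKM against 130 to 235 in the other 9 sedentary libraries, and Slc17a7, the vesicular glutamate transporter of such neurons, was at 17.1 against 509 to 817. The summed level of 6 neuronal markers was 938 FPKM in that library and at least 1828 in each of the others, while 4 oligodendrocyte markers summed to 6153 FPKM against at most 4411 elsewhere, so its tissue did not match the label hippocampus as the others did. In 14-7-0 replicate 4, zero values stood for 10279 genes, whereas the remaining libraries had between 6243 and 7199 of them. Of the 35 genes, 9 were higher and 5 lower in sedentary replicate 6 than in every other sedentary library. The share of all genes is not given for these counts, so nothing is read from them about the 35 genes. The counts and the calls of each comparison with sedentary are given with and without that library. In bulk tissue, fewer cells of a type and less RNA per cell cannot be told apart.

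A cilium grows from a basal body and has no ribosomes, so its parts are brought in by trains of proteins that walk along its microtubules. Kinesin motors pull the trains toward the tip, the IFT-B complex forms the main body of the train, and the IFT-A complex together with the dynein-2 motor serves the return. The BBSome, a coat of Bardet-Biedl proteins recruited by the small GTPase Arl6, takes membrane receptors out of the cilium, and loss of these proteins in people causes obesity, retinal degeneration and kidney disease. Hippocampal neurons and astrocytes each bear 1 immotile primary cilium, which senses ligands such as somatostatin, whereas ependymal cells bear tufts of motile cilia and the choroid plexus epithelium, which makes transthyretin and cerebrospinal fluid, bears tufts of its own.

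The factors of the RFX family switch on cilium genes through the X-box, a palindromic element. The X-box was searched as GTNNCC and GGNNAC set 2 bases apart, on both strands, in the window from 250 bases before to 50 bases after each gene's start in RefSeq, build GRCm38.p6, which is the assembly of the submitters' mm10. A window was at hand for 31 of the 35 genes. The element was found in 5 of these 31 windows, or 16.1%, against 2.16% of 27025 genes with a window. The 5 genes were Bbs1, Bbs4, Bbs7, Ift22 and Ift57, and in Bbs1 and Bbs4 the match lay after the start. The shorter sequence GTTGCC, which is contained in some matches of the longer one and was searched on both strands, stood in 14 of the 31 windows, or 45.2%, against 14.1% of all genes. Most of the 31 windows held no X-box. The 27025 genes were not filtered by level, whereas all 35 genes had a mean of at least 1 FPKM, so the shares are not of like sets. The upstream matches of 3 genes are shown, and Ift57, which the next results turn on, is among them. The capitals mark the X-box, and each sequence reads 5′ to 3′ on the strand of its gene.
Ift57, chr16:49699184-49699243, plus strand: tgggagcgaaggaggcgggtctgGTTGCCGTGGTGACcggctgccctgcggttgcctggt
Bbs7, chr3:36613474-36613533, minus strand: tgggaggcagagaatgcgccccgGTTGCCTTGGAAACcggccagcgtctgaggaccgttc
Ift22, chr5:136908064-136908149, plus strand: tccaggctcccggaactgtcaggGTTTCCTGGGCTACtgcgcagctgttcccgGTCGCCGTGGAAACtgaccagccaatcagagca
The match in Ift57 began 87 bases before the start, that in Bbs7 121 bases before the transcript start used for its window, which lies inside the outermost end of the gene, and those in Ift22 63 and 33 bases before. A match is a run of letters in a window and not a measured binding site. Of these 3 genes, Ift57 is described first below.

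Expression was uneven across the set and steady across the groups. Kifap3, the accessory subunit that holds the kinesin-2 motor to its cargo, was highest at 87.2 ± 7.47 FPKM (SD, n = 70 libraries). It was followed by Ift20, an IFT-B protein that also resides at the Golgi, at 50.2 ± 6.46 FPKM, and Ift22, a small GTPase-like IFT-B protein, at 39.7 ± 5.98 FPKM. The lowest were Bbs10 at 2.09 ± 0.322 FPKM and Bbs12 at 2.73 ± 0.551 FPKM, which encode chaperonins that assemble the BBSome, and Arl13b, a GTPase of the ciliary membrane, at 3.16 ± 0.411 FPKM. By complex, the 4 kinesin genes had means of 6.14 to 87.2 FPKM, the 13 IFT-B genes 4.44 to 50.2, the 3 IFT-A genes 5.15 to 10.6, the 3 dynein-2 genes 3.59 to 17.7 and the 7 BBSome genes 3.79 to 20.3. Subunits of 1 complex thus differed several-fold in level per length, while no value of any of the 35 genes in any library was below 1.45 FPKM.

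Between groups the spread was small. The highest group mean exceeded the lowest by 1.02 to 1.22 times, with a median of 1.11 times, and for 31 of the 35 genes it was under 1.2 times. The coefficient of variation over the 70 libraries ran from 7.12% for Bbs4 to 22.1% for Ift43. Of the lowest values of the 35 genes, 8 fell in 14-7-0 replicate 4 and 4 in sedentary replicate 6. Of the highest values, 4 fell in 14-7-0 replicate 4 and 5 in sedentary replicate 6. The share of all genes is not given for these counts, and nothing is read from them.

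**Figure D1:**
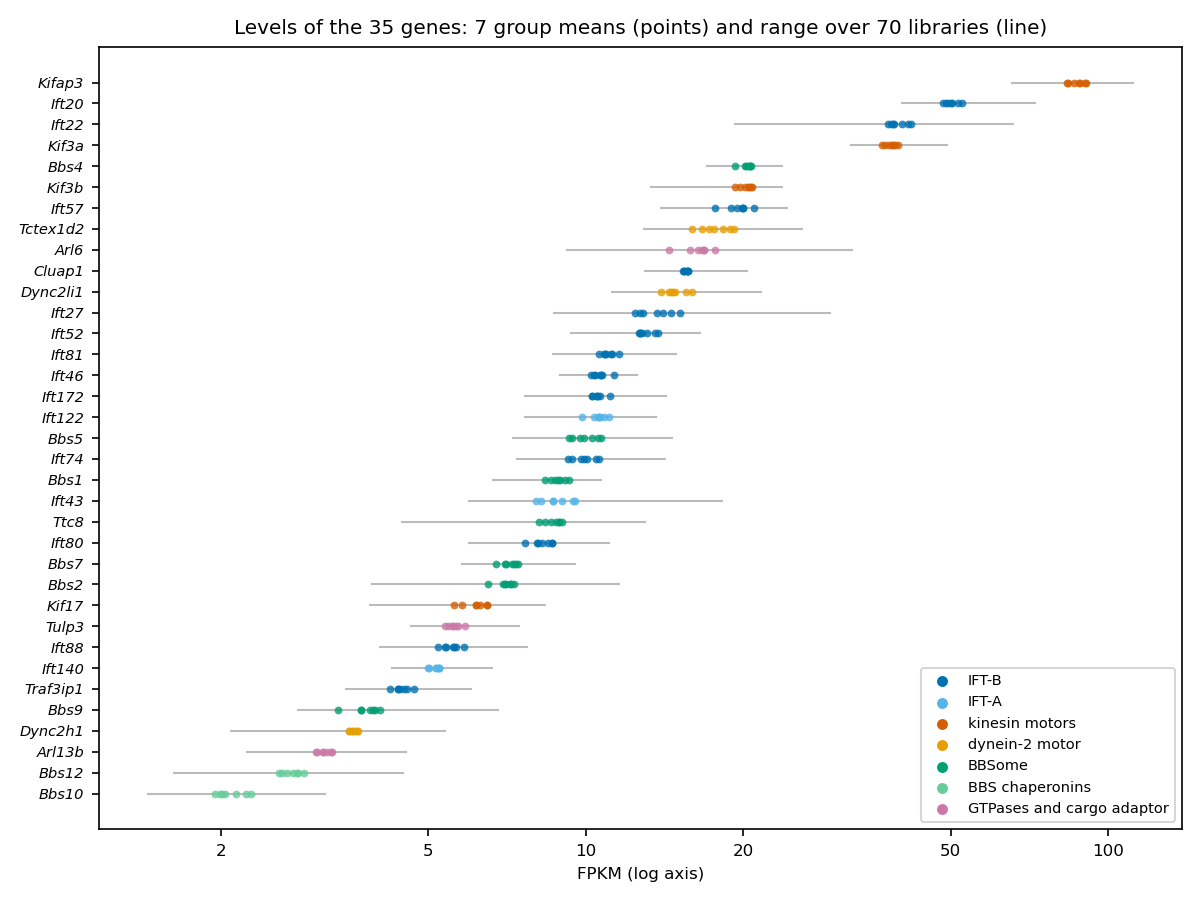
Levels of the 35 genes in FPKM on a log axis, each gene on a line of its own and coloured by complex, with points for the 7 group means and a grey line for the range over 70 libraries. The group means of a gene lie close together, within 1.22 times, while genes range from 2.09 FPKM (Bbs10) to 87.2 FPKM (Kifap3).

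Ift57, an IFT-B subunit of 65833 bases on chromosome 16 (49699294 to 49765126, plus strand, GRCm38), was lowest in sedentary mice. In the sedentary group it ranged from 13.9 to 20.4 FPKM with a median of 17.5. In 14-0-0 it ranged from 19.1 to 23.4 FPKM with a median of 20.8, so that all 10 libraries lay above the sedentary median but the ranges overlapped. The medians of the remaining exercise groups were 20.4 FPKM in 14-7-0, 19.8 in 14-7-2, 19.2 in 14-14-0 and 19.3 in 0-0-2. Home cage libraries ranged from 15.3 to 22.4 FPKM with a median of 19.3, between the sedentary median and the highest exercise median, and the lowest home cage value was below that of every exercise group. Because Ift57 shares 8.45% of its exonic bases with Gm15518 and the library kit does not keep strand, reads of these genes cannot be told apart there.

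The difference of Ift57 from sedentary was 0.25 ± 0.06 (SE) on the log2(FPKM + 0.1) scale in 14-0-0, or 1.19-fold. In 14-7-0 it was 0.17 ± 0.06, in 14-7-2 it was 0.18 ± 0.06, in 14-14-0 it was 0.15 ± 0.06 and in 0-0-2 it was 0.18 ± 0.07. All of these differences are taken from the same 10 sedentary libraries whose values helped to select Ift57, so no p-value is given and their likeness is no support for any of them. Of the exercised libraries, 9 of 10 in 0-0-2 and all 10 in each of the other 4 groups were above the sedentary median. Home cage differed from sedentary by 0.10 ± 0.07.

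Sedentary replicate 6 held the lowest value of Ift57 of all 70 libraries, 13.9 FPKM. Without it the differences from sedentary were 0.22 in 14-0-0, 0.14 in 14-7-0, 0.15 in 14-7-2, 0.11 in 14-14-0 and 0.14 in 0-0-2. With all 10 sedentary libraries, within harvest cohort 1 they were 0.24, 0.14, 0.10, 0.08 and 0.11 in the same order, and within cohort 2 they were 0.27, 0.21, 0.27, 0.21 and 0.25. Set against home cage in place of sedentary, a contrast added after the values were seen, Ift57 was higher by 0.15 in 14-0-0. In the other 4 groups that difference was 0.04 to 0.08 and did not pass (limma, smallest unadjusted p = 0.217). Compared with home cage, 3 of the 35 genes were higher in 14-0-0 (Ift57, Ift52 and Dync2li1), where 7.52% of all genes were called in either direction, and 2 in 0-0-2 (Ift27 and Ift52), where 6.0% were. The 14-0-0 values helped to select Ift57, so its difference and its call there are no separate support and nothing is read from them. None of the 35 genes was called in 14-7-0 or in 14-14-0 (limma, unadjusted p under 0.05), where 4.19% and 2.26% of all genes were.

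**Figure D2:**
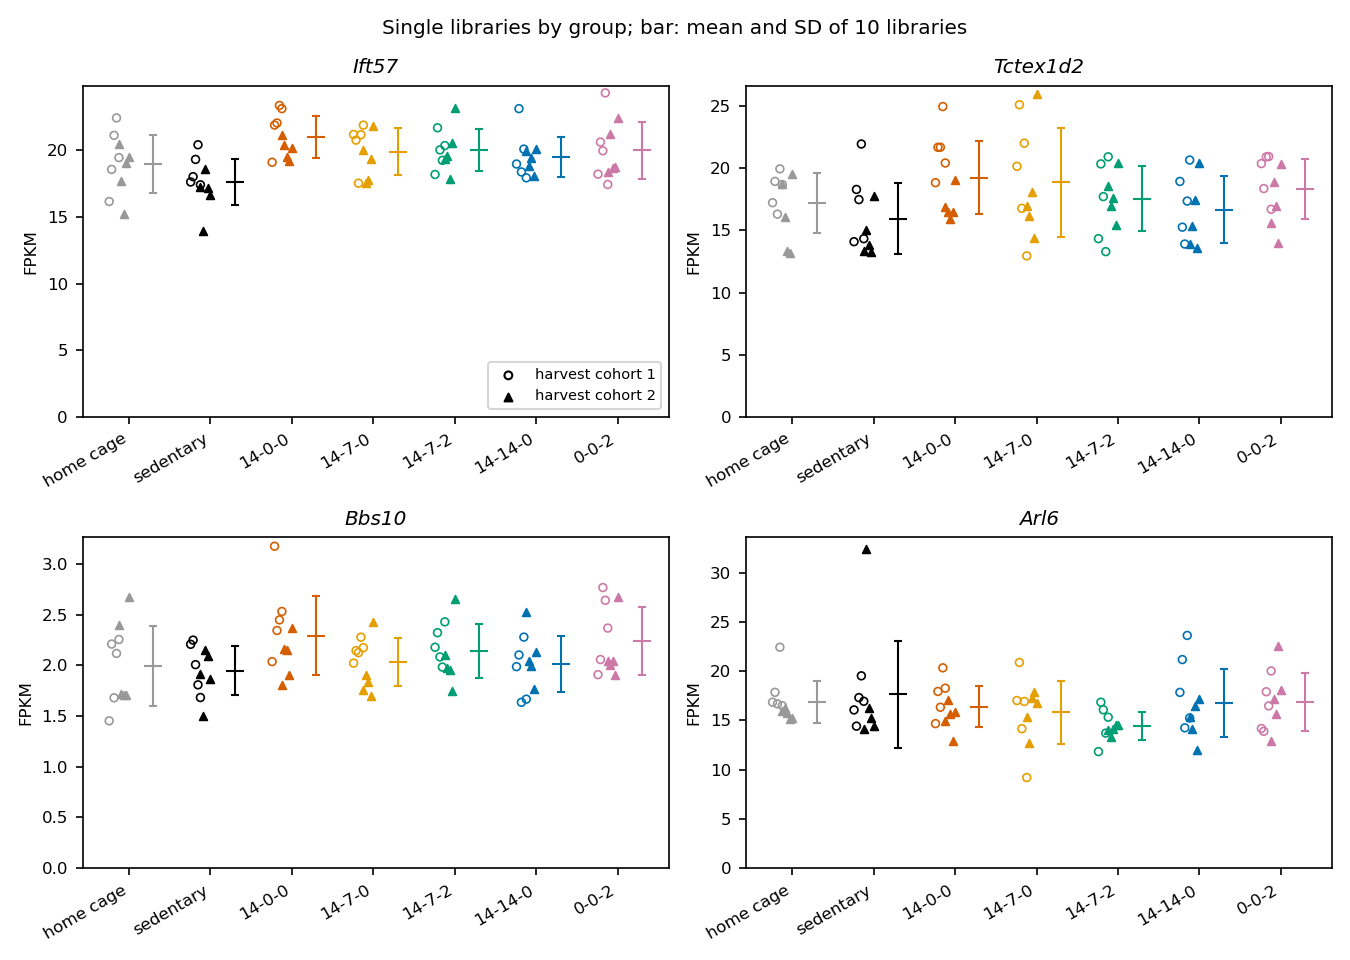
FPKM of Ift57, Tctex1d2, Bbs10 and Arl6 in single libraries by group, on axes that start at 0, with open circles for harvest cohort 1, triangles for cohort 2 and a bar for the mean and SD of 10 libraries. Ift57 is lowest in the sedentary group, at 13.9 to 20.4 FPKM, and the 1 high sedentary point of Arl6, at 32.4 FPKM, is replicate 6.

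In 14-0-0 against sedentary, 6 of the 35 genes were higher at an unadjusted p under 0.05 and none was lower, where 6.11% of all genes tested were higher and 3.04% lower, 9.15% together. Since Ift57 in this contrast helped to select the set, nothing is read from that count. Besides Ift57 these were Tctex1d2 and Dync2li1, a light and a light intermediate chain of dynein-2, Ift74 and Ift46, which are IFT-B subunits, and Bbs10. Tctex1d2 ranged from 13.3 to 21.97 FPKM with a median of 14.7 in sedentary and from 15.95 to 25.0 with a median of 18.9 in 14-0-0, a difference of 0.27 ± 0.10 on the log2 scale with all 10 libraries above the sedentary median. Dync2li1 differed by 0.20 ± 0.08, Ift74 by 0.19 ± 0.08, Bbs10 by 0.22 ± 0.09 and Ift46 by 0.13 ± 0.06. The groups overlapped for each of the 6 genes. Leaving out sedentary replicate 6, the count was 5 higher and none lower, with Ift52 gained and Bbs10 and Ift46 lost.

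In 0-0-2, 3 genes were higher and none lower, where 1.14% of all genes were higher and 1.23% lower, 2.37% together. Tctex1d2 ranged from 14.0 to 21.0 FPKM with a median of 18.7 and differed from sedentary by 0.21 ± 0.10 (limma, unadjusted p = 0.0437, adjusted p = 1). Bbs10 ranged from 1.90 to 2.77 FPKM with a median of 2.05, against 1.502 to 2.25 with a median of 1.96 in sedentary, and differed by 0.19 ± 0.09 (limma, unadjusted p = 0.0474, adjusted p = 1). Ift57 was the remaining gene. Without sedentary replicate 6, Tctex1d2 (0.20, limma p = 0.0604) and Bbs10 (0.15, limma p = 0.0931) no longer passed, Ift52 did (0.15, limma p = 0.0318), and the count was 2 higher.

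In 14-7-0 and in 14-14-0, Ift57 alone was higher and no gene was lower, where 1.6% of all genes were higher and 1.66% lower in 14-7-0 (3.26% together), and 3.19% higher and 1.75% lower in 14-14-0 (4.95% together). Tctex1d2 did not pass in 14-7-0, where its range of 13.0 to 26.0 FPKM was the widest of any group and the difference was 0.23 ± 0.12 (limma, unadjusted p = 0.0823). Without sedentary replicate 6, Kif3b was also called lower in 14-7-0 (-0.14, limma p = 0.0406, against -0.07 with it), which makes 2 calls, and without 14-7-0 replicate 4 Tctex1d2 was also called, again 2. In 14-14-0 the count did not change without sedentary replicate 6.

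In 14-7-2, Ift57 was higher and Arl6 lower, where 2.07% of all genes were higher and 2.32% lower, 4.39% together. Arl6, the GTPase that brings the BBSome to the membrane, ranged from 11.8 to 16.8 FPKM with a median of 14.3 in 14-7-2. In sedentary it ranged from 14.1 to 32.4 with a median of 16.2, and replicate 6 held the highest value. The difference was -0.25 ± 0.12 on the log2 scale (limma, unadjusted p = 0.0416, adjusted p = 0.847), with 1 of 10 libraries above the sedentary median. Without that library it was -0.15 (limma, unadjusted p = 0.0391), so the call stood and its size shrank by over 1.5 times. Against home cage Arl6 was also lower in 14-7-2, by -0.22 ± 0.07 (limma, unadjusted p = 0.00396, adjusted p = 0.205).

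In home cage against sedentary, no gene of the 35 passed, where 1.22% of all genes were higher and 1.08% lower, 2.3% together (limma, unadjusted p under 0.05). The smallest p belonged to Kif17, a neuronal kinesin that carries NMDA receptor vesicles in dendrites, at 4.54 to 6.43 FPKM in home cage and 4.49 to 8.04 FPKM in sedentary, with a difference of -0.16 ± 0.09 (limma, unadjusted p = 0.0943). In 14-7-2 against home cage, 3 genes were higher and 4 lower, among them Bbs9, Ift80 and Ift122 lower, where 9.96% of all genes passed in either direction, so that the share was 7 of 35. The smallest adjusted p of the 35 genes in the comparisons with home cage was 0.169 (limma), for Bbs9 in 14-7-2.

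The median over the set lay close to that of all genes tested. The median difference of the 35 genes from sedentary was -0.04 for home cage mice, -0.001 for 0-0-2, 0.02 for 14-0-0 and -0.01 for 14-14-0. For 14-7-0 it was -0.002 and for 14-7-2 it was -0.01, where the median of all genes tested lay between -0.01 and 0.008. By complex in 14-0-0, the median was 0.20 for the 3 dynein-2 genes, 0.09 for the 13 IFT-B genes and -0.07 for the 3 IFT-A genes. Above 0 were 10 of the IFT-B genes and none of the IFT-A genes, where 52.5% of all genes were. With sedentary replicate 6 left out the medians by complex were 0.24, 0.07 and -0.06. Then 12 of the 13 IFT-B genes and 1 of the 3 IFT-A genes were above 0, where 48.9% of all genes were. Ift57, whose values in this contrast helped to select the set, is among these IFT-B genes. Nothing is therefore read from these medians and counts by complex. The medians over all 35 genes without that library lay between -0.02 and 0.04 in the 6 comparisons. The heavy chain of dynein-2, Dync2h1, differed by -0.04 in 14-0-0 while its light and light intermediate chains differed by 0.27 and 0.20. The chaperonins Bbs10 and Bbs12 were above 0 in each of the 6 comparisons with all libraries, Bbs12 by 0.05 to 0.17 without passing in any. Without sedentary replicate 6, of these 2 genes 1 was above 0 in 0-0-2 and 0 in home cage, where their median was -0.01. The 7 BBSome subunits had no call in any comparison with sedentary (limma, unadjusted p under 0.05) but 2 in 14-7-2 against home cage, Bbs9 lower and Bbs5 higher.

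**Figure D3:**
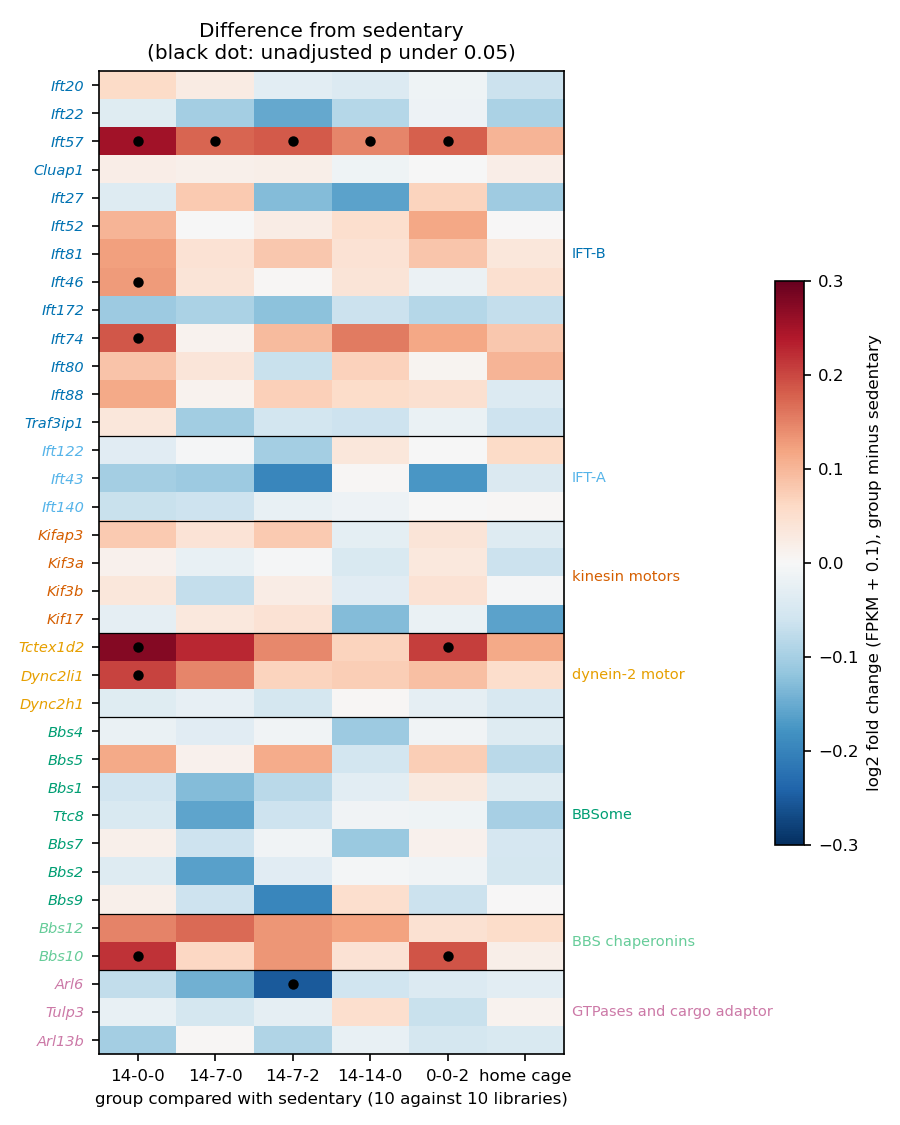
Difference from sedentary of each of the 35 genes (lines, ordered by complex) in 6 groups (columns), as a log2 fold change of FPKM + 0.1 on a colour scale from -0.3 to 0.3, with a black dot where the unadjusted limma p is under 0.05. Ift57 carries a dot in 5 columns, Tctex1d2 and Bbs10 in 2, and Arl6 in 14-7-2 is the lower call.

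Transthyretin varied from 15.5 to 21244 FPKM among the 70 libraries, without a gap that would part them into clusters, and 17 libraries were above 1000 FPKM. These were 5 in 14-0-0, 5 in 14-14-0, 3 in home cage, 2 in 0-0-2, 1 each in 14-7-0 and 14-7-2 and none in sedentary. The summed level of 14 choroid plexus markers ranged from 40.4 to 16326 FPKM in 14-0-0, from 52.8 to 22154 in 14-14-0 and from 28.5 to 384 in sedentary, and all 14 were higher than sedentary in 14-0-0 and in 14-14-0 at an unadjusted p under 0.05. In home cage 7 of the 14 were higher, and in the other 3 groups none was (limma, unadjusted p under 0.05). Of 5 meningeal fibroblast markers, 3 were higher in 14-0-0, 4 in 14-14-0 and 3 in home cage. Of 6 neuronal markers none was called in the 6 comparisons (limma, unadjusted p under 0.05). Of 4 astrocyte markers 1 was lower in 14-7-2, 1 lower in 14-14-0 and 1 higher in home cage, of 4 oligodendrocyte markers 2 were lower in 0-0-2, and of 4 microglia markers 1 was higher in 14-7-0 and 1 lower in 14-7-2. When sedentary replicate 6 was left out, 9 choroid plexus markers were higher in home cage and all 14 again in 14-0-0 and 14-14-0, 4 meningeal markers were higher in 14-0-0 and 3 each in 14-14-0 and home cage, 2 neuronal markers were lower in 14-14-0 and 1 in 0-0-2, 1 astrocyte marker was lower in 14-7-2, 1 microglia marker was lower in 14-0-0 and in 14-7-2, and no oligodendrocyte marker was called. The part of these cells in the differences of the 35 genes was not tested. With log2 Ttr as a covariate, given as a description, the difference of Ift57 was 0.23 in 14-0-0 in place of 0.25, and 0.17 in 14-7-0, 0.15 in 14-7-2, 0.09 in 14-14-0 and 0.15 in 0-0-2. Under the same covariate the difference of Dync2li1 in 14-0-0 went from 0.20 to 0.08, that of Ift74 from 0.19 to 0.07 and that of Tctex1d2 from 0.27 to 0.23.

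The slope of each gene on log2 Ttr was fitted over all 70 libraries with group as a term. It was positive at an adjusted p under 0.05 for 15 of the 35 genes and negative for 1, where 10.4% of all genes had a called positive and 16.8% a called negative slope, 27.2% together. Nothing is read from this count, since Ttr helped to select the set, and libraries share depth, dissection and normalisation. The median slope was 0.0172 for the 35 genes and -0.00269 for all genes, in log2 FPKM per log2 unit of Ttr. Of the 35 correlations within groups 27 were positive and 8 negative, where 44.1% of all genes had a positive slope. The counts were 15 and 1 without sedentary replicate 6, where 11.0% of all genes had a called positive slope and 29.7% a called slope in either direction. They were 16 and 1 without 14-7-0 replicate 4, where these shares were 11.1% and 28.4%.

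Ift43, an IFT-A subunit, had the steepest slope, 0.0456 ± 0.0110 (SE), followed by Ift74 at 0.0452 ± 0.00699, Arl6 at 0.0359 ± 0.0106 and Tulp3 at 0.0318 ± 0.00717. Tulp3 is the adaptor that hands membrane receptors to IFT-A for entry. Ift74 followed Ttr most closely, with a Pearson r of 0.667 and a Spearman rho of 0.531 over 70 libraries, 0.736 in cohort 1, 0.611 in cohort 2 and 0.617 without the 2 libraries farthest from the median Ttr. In 14-14-0 it ranged from 7.94 to 14.2 FPKM and had an r of 0.837, and in sedentary, where Ttr stayed below 344 FPKM, it ranged from 8.03 to 9.99 FPKM with an r of -0.0753. Over the whole span of Ttr the fitted rise of Ift74 was 1.39-fold, and it gained 0.253 FPKM for each 1000 FPKM of Ttr.

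Ift43 had an r of 0.418 and a rho of 0.430, with 0.387 without the 2 farthest libraries, 0.586 in cohort 1 and 0.260 in cohort 2. Arl6 had an r of 0.344, a rho of 0.363 and 0.328 without the 2 farthest libraries, with 0.543 and 0.146 in the cohorts. Tulp3 had an r of 0.479, a rho of 0.419 and 0.401 without the 2 farthest libraries, with 0.536 and 0.419 in the cohorts. The slopes within cohorts 1 and 2 were 0.0461 and 0.0370 for Ift43 and 0.0458 and 0.0259 for Arl6. Whether the cohorts differ was not tested, and cohort 2 holds sedentary replicate 6, which had the highest value of both genes. The correlation within a group was positive in all 7 groups for 5 genes, Ift43, Arl6, Dync2li1, Bbs2 and Ift81.

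Ift57 had a slope of 0.0172 ± 0.00579, an r of 0.400, a rho of 0.391 and an r of 0.379 without the 2 farthest libraries, with 0.419 and 0.414 in the cohorts. Tctex1d2 and Bbs10 had slopes of 0.0225 and 0.0259, of which that of Bbs10 was called.

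Kif17 was the 1 gene of the set called with a negative slope, -0.0338 ± 0.010, with an r of -0.416, a rho of -0.344, -0.401 without the 2 farthest libraries, and -0.600 and -0.231 in the cohorts. The call of Kif17 was lost with replicate number as a term and in each cohort alone, and it stood in the other settings tried. Its correlation with Ttr was negative in each of the 7 groups. Its lowest value, 3.86 FPKM, was in a 14-14-0 library. The next lowest slopes were -0.0112 ± 0.010 for Ift22, -0.0104 ± 0.0114 for Ift27, a small GTPase-like subunit through which the BBSome leaves the cilium, and -0.00720 ± 0.00827 for Ift20. None of these 3 was called, and their r values were -0.133, -0.186 and -0.0937, with rho values of 0.00829, -0.0912 and -0.137 and r of -0.152, -0.140 and -0.128 without the 2 farthest libraries. By complex, a called positive slope was found for 7 of 13 IFT-B genes, 3 of 7 BBSome genes and 2 of the 3 GTPases and cargo adaptor. It was found for 1 of 3 IFT-A genes, 1 of 3 dynein-2 genes, 1 of 2 chaperonins and 0 of 4 kinesin genes. Of all genes, 10.4% had one. Nothing is read from these counts, since Ttr helped to select the set.

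**Figure D4:**
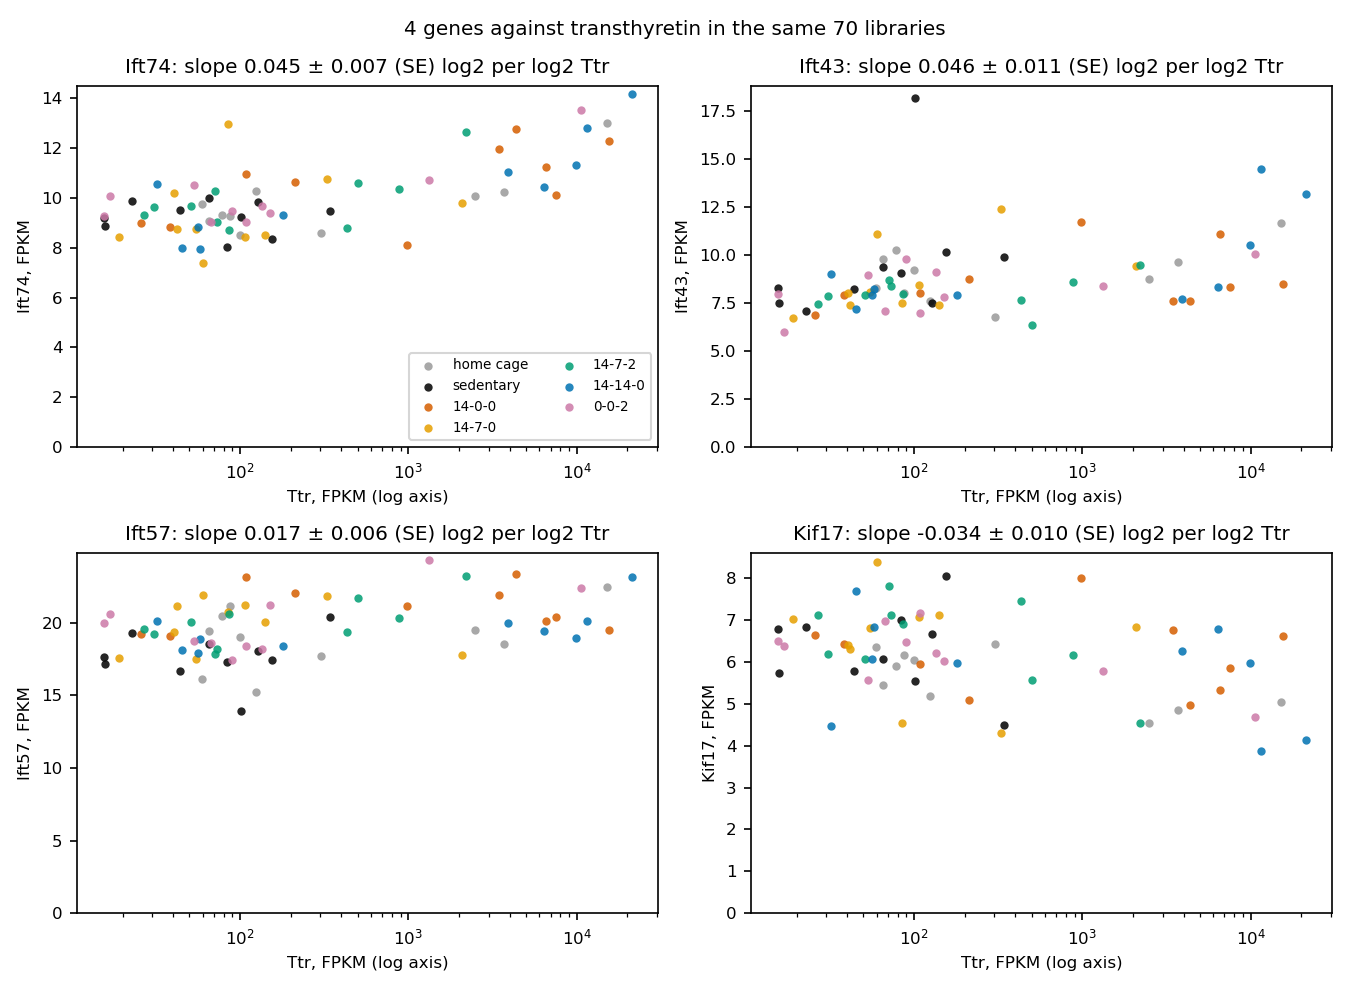
FPKM of Ift74, Ift43, Ift57 and Kif17 (axes from 0) against Ttr in FPKM (log axis) in 70 libraries coloured by group, with the fitted slope and its SE in each title. Ift74 is highest, at 14.2 FPKM, in the library with the most Ttr, Kif17 slopes downward, and the black sedentary points stay at low Ttr and hold the lowest Ift57 value, 13.9 FPKM.

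Ependymal cells lie beside the choroid plexus and bear motile cilia built by the same trains. Of 17 ependymal and motile cilium markers, 11 passed the filter, and their mean centred log2 level, the ependyma score, correlated with log2 Ttr at a Pearson r of 0.644 and a Spearman rho of 0.626 over 70 libraries. The summed level of the 17 markers ranged from 16.3 to 163 FPKM in sedentary, where replicate 6 held the highest value, from 20.3 to 100 in 14-0-0 and from 29.4 to 166 in 14-14-0. Of the 11 markers tested, 1 was higher than sedentary in 14-0-0 and 2 in 14-14-0, and 9 had a called positive slope on Ttr. Leaving out sedentary replicate 6, 4 were higher in 14-0-0 and 8 in 14-14-0. A model with log2 Ttr, the ependyma score and group together was added after the values were seen. In it 4 of the 35 genes had a positive slope on the ependyma score at an adjusted p under 0.05 and 2 a negative one, where 9.08% and 8.66% of all genes did, so the share was near the background. These were Ift43 (0.21 ± 0.04), Bbs9 (0.16 ± 0.03), Arl6 (0.13 ± 0.04) and Bbs2 (0.11 ± 0.04) on the positive side, and Kif17 (-0.12 ± 0.04) and Ift57 (-0.08 ± 0.02) on the negative side, in log2 FPKM per log2 unit of score.

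Beside the ependyma score, the slope on Ttr was still called for 2 genes, where 6.43% of all genes had a called positive and 7.37% a called negative one. That share was near the background too, and neither is read as a result about these genes. Both slopes were positive, Ift74 at 0.0356 ± 0.00871 and Ift57 at 0.0313 ± 0.00681. The slope on Ttr of Ift43 was then 0.00939 ± 0.0121 and that of Arl6 0.0132 ± 0.0127. Sedentary replicate 6 had the highest ependyma sum of its group and the highest values of all 70 libraries for Ift43, Bbs9, Arl6 and Bbs2, as well as the lowest for Ift57. Without it, a fit also added after the values were seen, 2 genes were called positive on the ependyma score, Ift43 (0.15 ± 0.04) and Bbs9 (0.11 ± 0.03), and none negative (limma, adjusted p under 0.05), where 5.44% and 2.54% of all genes were. Arl6 was then at 0.06 ± 0.04, Bbs2 at 0.06 ± 0.04, Kif17 at -0.13 ± 0.05 and Ift57 at -0.06 ± 0.03, and the slopes on Ttr of Ift74 and Ift57 were 0.0334 ± 0.00896 and 0.0282 ± 0.00688.

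**Figure D5:**
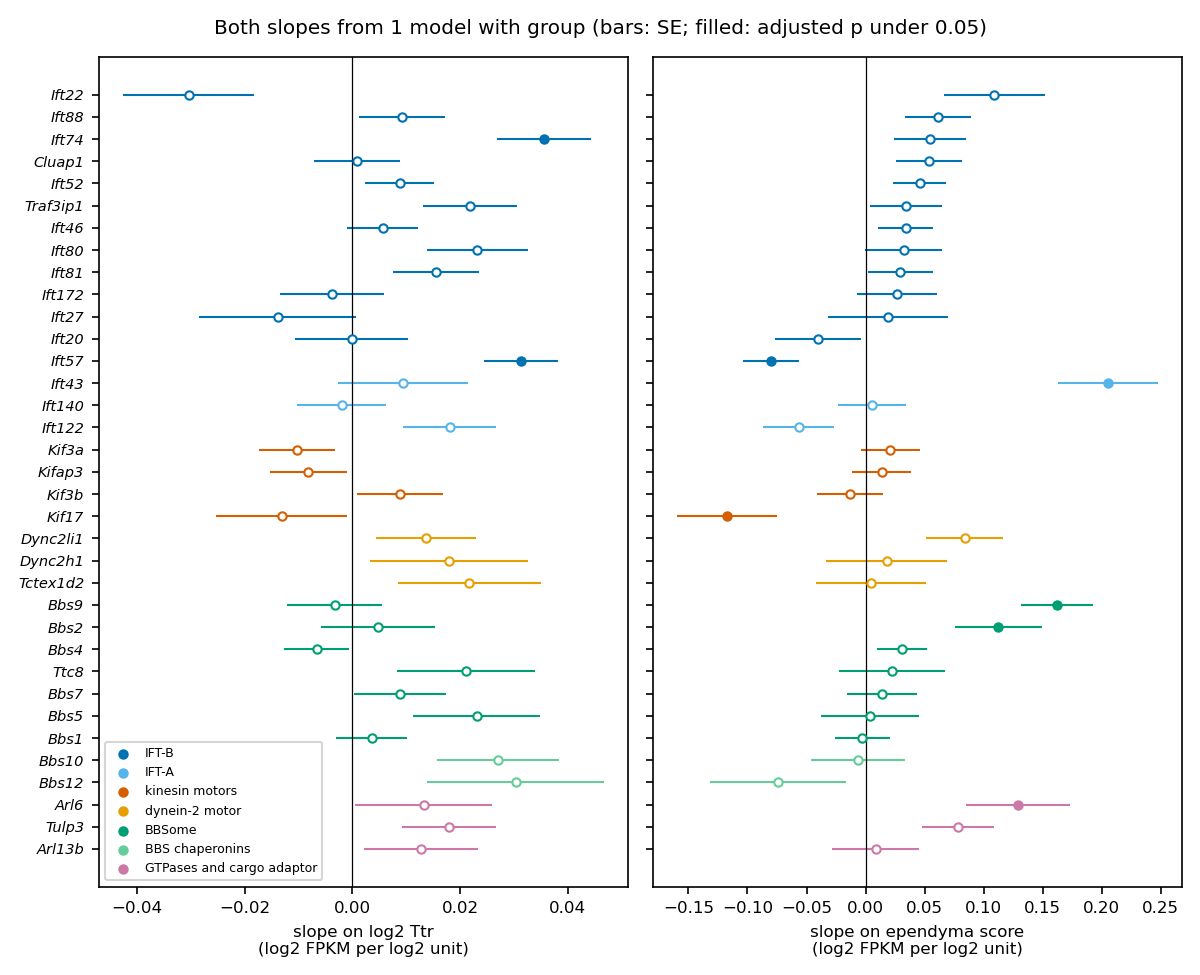
Slopes of the 35 genes on log2 Ttr (left) and on the ependyma score (right) from 1 model that also holds group, with bars for the SE, colours for the complex and filled points where the adjusted limma p is under 0.05. Ift74 and Ift57 are filled on the left, and on the right Ift43, Bbs9, Bbs2 and Arl6 are filled above 0 and Kif17 and Ift57 below 0, of which Ift43 and Bbs9 were also called without sedentary replicate 6.

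Other genes of the cilium were taken as 4 lists, whose counts stand against the shares of all genes given above for each comparison and, on Ttr, against 10.4% positive and 16.8% negative. With sedentary replicate 6 left out, the share of all genes called in either direction was 2.52% (0-0-2) to 10.3% (14-0-0). Of 18 further genes of the same machinery, 17 had a row and 16 passed the filter. In 14-0-0 and in 0-0-2 the 1 gene of this list called was Hspb11, the partner of Ift27 also known as Ift25, higher by 0.25 ± 0.12 and 0.24 ± 0.12. In 14-7-0 and 14-14-0 it was Ttc30b, an IFT-B subunit, higher by 0.16 ± 0.07 and 0.17 ± 0.08, and no gene was called in 14-7-2 or home cage. With that library left out, Hspb11 was higher in 14-0-0 (0.30), in 14-7-0 (0.36) and in 0-0-2 (0.29), Ttc30b was called in none, and Dynlrb2, which is also on the ependymal list, was higher in 14-0-0 and 14-14-0 and Ttc30a1 in home cage. On Ttr, 5 of the 16 had a called positive slope and none a negative one, among them Wdr35 and Wdr19 of IFT-A.

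Of 16 transition zone genes, which form the gate at the base of the cilium, 10 had a called positive slope on Ttr and 2 a negative one, with the steepest at 0.119 ± 0.0119 for Tmem237. Tmem231, a membrane protein of that gate, was higher in 14-14-0 by 0.21 ± 0.08, and no gene of the list was called in 14-7-0, 14-7-2, 0-0-2 or home cage (limma, unadjusted p under 0.05). With sedentary replicate 6 left out, Tmem231 was called in 14-0-0, 14-14-0 (0.25) and 0-0-2 (0.19), Tmem237 in 14-0-0 and Tmem216 in home cage, each of them higher.

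Of 10 genes of the ciliary membrane and its signalling, 2 were lower in 14-0-0, 1 in 14-7-0, 1 in 14-14-0 and 1 in home cage, and 1 was higher in 14-14-0 and in home cage. Sstr3, the somatostatin receptor of neuronal cilia, was lower by -0.31 ± 0.13 in 14-0-0 (limma, unadjusted p = 0.0286) and by -0.35 ± 0.15 in 14-7-0 (limma, unadjusted p = 0.0332). Adcy3, the adenylyl cyclase that marks neuronal cilia, was lower by -0.20 ± 0.08 in 14-0-0 (limma, unadjusted p = 0.0210) and by -0.16 ± 0.07 in 14-14-0 (limma, unadjusted p = 0.0362). Smo, the hedgehog signal transducer, was higher in 14-14-0 by 0.25 ± 0.10 and in home cage by 0.19 ± 0.08, and Mchr1, a melanin-concentrating hormone receptor, was lower in home cage by -0.27 ± 0.09. No adjusted p of these was below 0.05 (limma). With the same library left out, Sstr3 was lower in 14-0-0 (-0.42 ± 0.08), in 14-7-0 (-0.46 ± 0.12), in 14-14-0 (-0.27 ± 0.07) and in 0-0-2 (-0.26 ± 0.08), Adcy3 in 14-0-0 (-0.19) and no longer in 14-14-0, the calls of Smo and Mchr1 stood, and Gpr161 was also lower in home cage. On Ttr 2 of the 10 had a called positive and 3 a called negative slope. The genes called were Smo, Htr6, Adcy3, Pkd2 and Sstr3, so Sstr3 also varied with Ttr. The slope of Smo was 0.0467 ± 0.00868 and that of Adcy3 -0.0350 ± 0.0101. Of 5 transcription factors that drive cilium formation, Rfx1 was lower in 14-0-0 by -0.52 ± 0.21 and none was called in the other 5 comparisons (limma, unadjusted p under 0.05). In the fits without sedentary replicate 6, Rfx1 no longer passed (-0.43, limma p = 0.0510) and Foxj1 was higher in 14-14-0. On Ttr 2 of the 5 had a called positive and 1 a called negative slope, and Foxj1, the master factor of motile cilia, had a slope on Ttr of 0.111 ± 0.0283.

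Between the 2 harvest cohorts, 30 of the 35 genes were lower in cohort 2 and 5 higher, where 40.3% of all genes were higher. The median difference was -0.06 for the 35 genes against -0.02 for all genes. No gene passed an adjusted p of 0.05 (limma), where 0.585% of all genes did, 0.131% higher and 0.454% lower. At an unadjusted p under 0.05, 8 were lower and none higher, where 8.29% of all genes were lower and 11.9% differed in either direction. The smallest p was that of Bbs7, a BBSome subunit, at 7.46 ± 0.764 FPKM in cohort 1 and 6.85 ± 0.626 FPKM in cohort 2 (SD, n = 35 libraries each), a difference of -0.12 ± 0.03 (limma, adjusted p = 0.0576). Tctex1d2, at 18.6 ± 3.11 and 16.8 ± 2.72 FPKM, and Dync2li1, at 15.6 ± 2.18 and 14.1 ± 1.45 FPKM, were also lower in cohort 2 at an unadjusted p under 0.05. Since every group held 5 libraries of each cohort, the comparisons between groups were balanced for it, and of 210 tests of a cohort by group difference, 2 had an unadjusted p under 0.05 and the smallest adjusted p was 0.953 (limma).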

How the data were processed

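RNA of dorsal hippocampus was sequenced by the authors from poly-A selected, unstranded libraries as 50 base single reads. Per the study's methods and the submitters' processing notes, reads were aligned to mm10 with ELAND and Bowtie, allowing up to 2 mismatches, and the authors deposited FPKM per gene from the Tuxedo tools (Cuffnorm). Versions of Bowtie and Cuffnorm are not given in the sources used here. The table holds 70 libraries and 24346 genes, and 0 columns of other samples. From these FPKM, log2(FPKM + 0.1) was compared with limma 3.58.1 in R 4.3.3 (moderated test with trend, two-sided) for the 12994 genes that averaged 1 FPKM or more, on the 20 libraries of each comparison. The difference is smaller on this scale than in FPKM for low genes. A gene was called at an unadjusted p under 0.05, as in the study, with Benjamini-Hochberg adjustment over all genes tested given beside it. Slopes on log2 Ttr and cohort differences used all 70 libraries with group as a term and an adjusted p under 0.05.

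The genes, complexes, lists and marker sets were chosen with earlier results of these data known. Full values are given for Ift57, the 4 highest and 4 lowest slopes on Ttr, genes called in at least 2 comparisons, the smallest p of each comparison, and the 3 highest and 3 lowest means. Genes named beyond these were chosen after their values were seen. Marker lists covered choroid plexus, ependyma, neurons, astrocytes, oligodendrocytes, microglia and meningeal fibroblasts. The test was checked on simulated data at these sample sizes. No library held the same values as another. A result for a gene of the transition zone list is not reported here.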

Additional observations from a re-analysis of the deposited data

Results flagged for a closer look

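Single libraries that lay apart from the other 9 of their group were searched for the 14 genes given with full values, over 98 groups of 10 libraries, by the gap to the nearest library as a share of the group's range. The search marked 18, where about 1 in 20 groups, or 4.9, is the rate for independent groups of normal values. Most of the 14 genes were chosen by their values and all share the same libraries. Nothing is therefore read from 18 against 4.9. Sedentary replicate 6, the library with few neuronal transcripts, gave 4 of the marks: Arl6 at 32.42 FPKM (the others 14.1 to 19.5), Ift22 at 65.83 (35.1 to 46.9) and Ift43 at 18.2 (7.09 to 10.2) were highest and Ift57 at 13.95 (16.7 to 20.4) lowest. Its part in the comparisons is given by the values without it.

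In 14-7-0, replicate 4, which had the most genes listed at 0, was highest for Ift27 at 29.33 FPKM (the others 11.1 to 16.05) and for Tulp3 at 7.248 (4.93 to 5.94). In the same group replicate 9 was highest for Ift20 at 72.62 and replicate 1 for Kifap3 at 111.6. In 14-7-2, replicate 9 was lowest for Ift22 at 19.31 and highest for Ift74 at 12.66, and in 0-0-2 replicate 9 was highest for Ift74 at 13.55. In 14-14-0, replicate 1 was highest for Ift57 at 23.14 and lowest for Ift27 at 8.694, replicate 3 highest for Ift22 at 48.49, and replicate 9 highest for Kifap3 at 93.93. In home cage, replicate 3 was highest for Arl6 at 22.43 and for Ift74 at 13.02, and replicate 9 lowest for Ift22 at 27.5.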

How the results depend on the processing

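Counts are of the 35 genes, called in either direction, and are listed where they moved by 1.5 times or more. The share of all genes called under the same setting follows each count in brackets. In 14-0-0 the count of 6 (9.15%) became 1 with log2 Ttr as a covariate (4.91%) and 3 in cohort 2 alone (4.70%). In 14-7-0 the count of 1 (3.26%) became 2 with no filter (3.55%), 3 in the joint fit of 7 groups (6.90%) and 3 with the replicate block (5.07%). It was 0 in cohort 1 alone (1.71%) and 0 in cohort 2 alone (1.36%). It was 2 without sedentary replicate 6 (3.29%) or without 14-7-0 replicate 4 (3.72%). In 14-7-2 the count of 2 (4.39%) became 1 with the replicate block (5.87%) and 1 in cohort 1 alone (1.89%). It was 3 in the joint fit (8.33%) and 3 with log2 Ttr (3.04%). In 14-14-0 the count of 1 (4.95%) became 2 with no filter (5.81%), 2 in the joint fit (5.65%) and 2 with log2 Ttr as a covariate (0.993%). It was 0 in cohort 1 alone (4.62%). In 0-0-2 the count of 3 (2.37%) became 2 at a mean of at least 5 FPKM (2.14%), with the replicate block (2.78%) and without sedentary replicate 6 (2.52%). It was 1 with log2 Ttr (2.19%), 0 in cohort 1 alone (1.36%) and 1 in cohort 2 alone (2.72%). Single cohorts hold 5 libraries a group, which lowers the power. Counts without sedentary replicate 6 ran from 0 in home cage (3.15%) to 5 in 14-0-0 (10.3%). For the slope on Ttr the count of 16 (27.2%) became 7 with the replicate block (10.1%), 10 in cohort 1 alone (10.3%) and 3 in cohort 2 alone (13.1%). It was 11 with Ttr in FPKM (18.7%), a setting chosen after seeing the data. Under the block the slopes of Ift27 (0.00731) and Ift22 (0.00299) turned positive, and neither was called in either fit. For cohort 2 against 1 the count of 0 (0.585%) became 2 at a mean of at least 5 FPKM (1.21%) and 3 with log2 Ttr (0.870%). It was 1 without sedentary replicate 6 (0.885%) or without 14-7-0 replicate 4 (1.19%). Of the changes, the cause was not tested.

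Same-numbered libraries share a harvest cohort, and the labels name no other tie between them. In each comparison 2 to 7 of 10 same-numbered pairs correlated above 0.1, with a median r of -0.00575 (14-7-2) to 0.158 (14-7-0). At most 3 libraries correlated best with their own number. Whether same-numbered libraries share more than the cohort was not tested. With the replicate block, 2.78% (0-0-2) to 14.5% (14-0-0) of all genes were called, against 2.37% and 9.15% in those comparisons without it. The replicate block was not run for the cohorts, whose replicate numbers differ. Another scaling moved the median of all genes by at most 0.0147 log2 units. Read totals were not used, so the precision that depth gives each library was not assessed.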
